A study of Mus musculus with 12 samples.

Results

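The Id genes (inhibitor of DNA binding) Id1, Id2, Id3 and Id4 were followed in single cells of the developing mouse cochlea, across stages, spiral ganglion neuron (SGN) classes, glia, otic mesenchyme (OM) and hair cells (HCs). The genes were taken by name, and 4 of the 24489 gene columns of the count table belong to the family. Id proteins are helix-loop-helix proteins that lack the basic region with which related factors hold DNA. They pair with E proteins, the widely expressed helix-loop-helix factors encoded by Tcf3, Tcf4 and Tcf12, and keep these from forming DNA-binding pairs with proneural factors such as NEUROD1. Id genes are well-known targets of bone morphogenetic protein (BMP) signalling through SMAD proteins, and in many tissues they are linked to dividing or undifferentiated cells.

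The series held 12 plates of 384 wells with 1 sorted cell a well, sequenced by the full-length Smart-seq2 method, and each plate was 1 sample. There were 3 plates of E16.5, 1 of E17.5 and 2 of each other stage (E14.5, E15.5, E18.5, P3). The cells were sorted as tdTomato+ from dissociated cochlea of mice that carried a Cre driver and the Cre-dependent tdTomato reporter Ai14, with no other allele or treatment. The labelled genotype was PVcre;Ai14 on 11 plates and TrkCcre on E14.5 replicate 2, whereas the study's methods name the Ntrk3 (TrkC) driver for E14.5, so the driver of E14.5 replicate 1 is uncertain. If both E14.5 plates had the Ntrk3 driver, stage and driver cannot be told apart in any comparison with E14.5. The sort was set to cells with the reporter, so cells in which the drivers were never active may be under-represented. They were not all kept out, since the paper regards its OM cluster as a likely contaminant of the sort. Whether the glia, OM and immune cells below carried the reporter was not tested. Animals of either sex were pooled, so that a plate was not 1 animal, and nothing in the labels says that plates of a stage came from separate animals. The p-values therefore measure the spread between plates, which may be technical.

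Of 4608 wells, 4226 cells were kept, with 80997594 to 303906928 counts a plate and a median of 232473 to 1092427 counts a cell. Plates of the name series SS2_20 (E14.5, E15.5, E16.5 replicate 3, E17.5) had a median of 4691 to 4983 genes detected a cell, against 8426 to 9629 on the others. The E18.5 and P3 plates each formed a name series of their own, so that stage and plate series cannot be told apart there. Clusters were named from marker genes, and each class name below means cells of that marker profile (SGN-like, glia-like and so on). There were 2277 neurons, 1136 glia, 519 OM cells, 86 HCs and 6 immune cells, and 202 cells stayed unnamed. The 6 neuronal markers summed to 8321 to 14480 CPM (counts scaled to the same library total, TMM-normalised) in the neuron sums. In the glia of the SS2_20 plates they summed to 82.9 to 108 CPM. The classes had been named from these markers, so the gap is no separate check of the names. The 6 glial markers were not absent from neurons. They summed to 17.9 to 103 CPM in neurons of the SS2_20 plates, 572 to 672 CPM in E16.5 replicates 1 and 2, 2417 to 2445 CPM at E18.5 and 3549 to 4001 CPM at P3, against 5069 to 8651 CPM in glia of the SS2_20 plates. The part of glial RNA in the neuronal values was not tested beyond the repeats in glia-poor neurons given with each result.

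The 4 genes lie on 4 chromosomes (mm10, GENCODE vM21). Id1 is at chr2:152736251-152737410 on the plus strand with 2 exons, Id2 at chr12:25093799-25097140 on the minus strand with 3 exons, Id3 at chr4:136143497-136145755 on the plus strand with 3 exons and Id4 at chr13:48261228-48266026 on the plus strand with 3 exons. Reads from stretches that are alike bear on whether the family members can be told apart. Shown is the window of 40 codons whose amino acids were most alike between Id1 and the other genes, with untranslated parts not searched. It is a block of 120 coding bases inside the first exon of each gene, at chr2:152736518-152736637 (Id1), chr12:25095783-25095902 (Id2), chr4:136144002-136144121 (Id3) and chr13:48261693-48261812 (Id4). The block is printed 5′ to 3′ on the coding strand, with the bases that are identical in all 4 genes in capitals.
Id1: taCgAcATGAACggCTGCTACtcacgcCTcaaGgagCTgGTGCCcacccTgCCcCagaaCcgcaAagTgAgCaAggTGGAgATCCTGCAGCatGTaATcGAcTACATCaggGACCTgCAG
Id2: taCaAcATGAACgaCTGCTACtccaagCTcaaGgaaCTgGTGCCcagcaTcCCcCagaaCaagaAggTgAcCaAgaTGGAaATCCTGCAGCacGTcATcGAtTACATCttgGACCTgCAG
Id3: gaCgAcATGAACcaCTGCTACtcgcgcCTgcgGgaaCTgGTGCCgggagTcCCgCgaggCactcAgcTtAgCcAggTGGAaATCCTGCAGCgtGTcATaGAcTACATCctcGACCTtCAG
Id4: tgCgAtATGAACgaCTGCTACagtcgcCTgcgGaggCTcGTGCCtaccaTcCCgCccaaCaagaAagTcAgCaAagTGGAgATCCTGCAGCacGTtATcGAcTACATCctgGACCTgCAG
Of the 120 bases, 69 (57.5%) were the same in all 4 genes. In pairs the block was most alike between Id1 and Id2 (81.7%) and least alike between Id3 and Id1 or Id4 (70.8%). The longest run of bases shared by any pair of transcripts was 11 to 19 bases, and only reads with 1 match in the genome had been counted by the authors.

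Levels were compared between genes per kilobase of exon, over the 6 SS2_20 plates. In neurons the median was 132 CPM per kb for Id1 (83.9 to 261), 97.0 for Id2 (85.9 to 128), 101 for Id3 (40.5 to 163) and 22.9 for Id4 (16.2 to 27.6). The ranges of Id1, Id2 and Id3 overlapped, and Id4 lay below all of them. In glia the order was Id3 (median 233 CPM per kb), Id2 (54.5), Id1 (21.4) and Id4 (8.07), with no overlap between neighbours. In OM it was Id3 (455), Id1 (109), Id2 (54.0) and Id4 (1.02), where only the ranges of Id1 and Id2 overlapped. All other levels below are CPM without a correction for length, and are compared within a gene only.

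Across neurons as a whole the 4 genes followed 4 different courses from E14.5 to P3. Id3 rose from E14.5 to E15.5, Id1 was highest at E16.5, Id2 fell after E16.5 and was higher again at P3, and Id4 was lowest at E18.5. Id3, the gene with the clearest early rise, measured 72.5 and 109 CPM on the 2 plates of E14.5 and 167 and 206 CPM at E15.5. It then measured 267, 268 and 291 CPM at E16.5, 195 CPM on the 1 plate of E17.5, 317 and 281 CPM at E18.5 and 184.5 and 150.8 CPM at P3. Both E14.5 plates lay below every later plate, and the P3 plates overlapped those of E15.5.

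**Figure D1:**
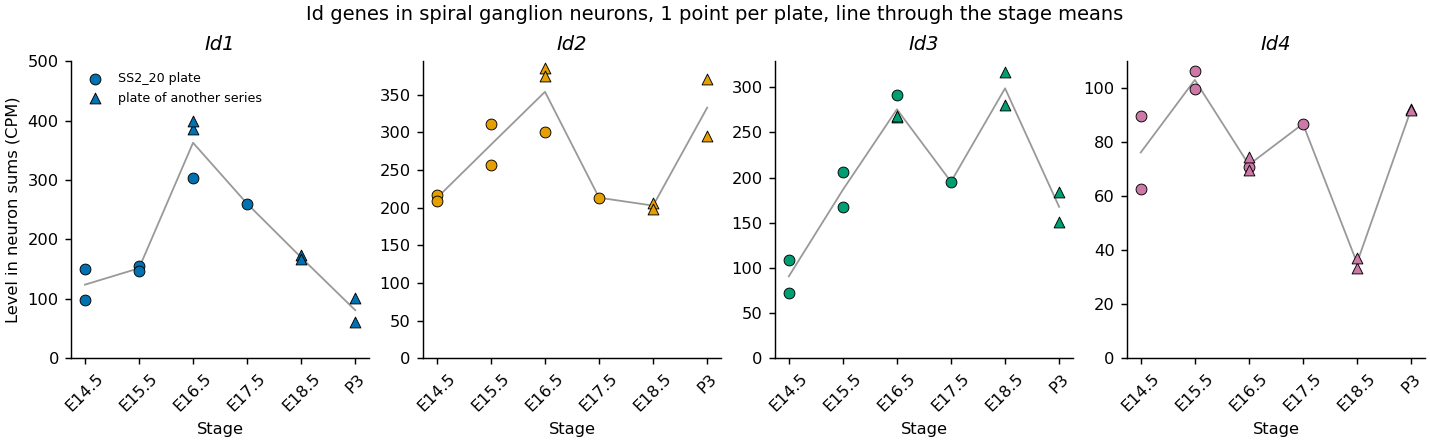
Levels of the 4 Id genes (CPM, linear axis) in the neuron sum of each plate, by stage. Each point is 1 plate, 12 in all. Id1 peaks on the 3 plates of E16.5 (303 to 398 CPM), Id3 is lowest on the 2 plates of E14.5 and Id4 is lowest at E18.5 (33.4 and 37.1 CPM).

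From E14.5 to E15.5, 1 of the 4 genes passed the test, beside 6.12% of all genes tested. Id3 was 2.04-fold higher at E15.5 (log2 difference 1.03 ± 0.19 SE, edgeR adjusted p = 0.0118, 2 plates against 2). The call was lost without E15.5 replicate 2 (0.87, adjusted p = 0.0656 by edgeR) and with the SS2_20 plates fitted alone (1.04, edgeR adjusted p = 0.0614). Id1, Id2 and Id4 did not pass. Of the pathway lists, 2 of 3 E proteins were lower at E15.5, Tcf4 by a log2 difference of -0.95 and Tcf3 by -0.85. Neurod1, a proneural factor of the early otic neuron lineage, measured 713 and 365 CPM at E14.5 against 39.3 and 52.6 CPM at E15.5 (log2 difference -3.57 ± 0.43 SE, edgeR adjusted p = 0.00163).

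From E15.5 to E16.5, Id1 alone passed, beside 1.84% of all genes. Id1 measured 97.3 and 150.2 CPM at E14.5, 156 and 147 CPM at E15.5, 387, 398 and 303 CPM at E16.5 and 260.1 CPM at E17.5. All 3 plates of E16.5 lay above every plate of the other stages. The log2 difference between E16.5 and E15.5 was 1.24 ± 0.23 SE (2.36-fold, edgeR adjusted p = 0.0273). The call was lost in each of 6 fits that left out 1 plate of E15.5, E18.5 or replicate 1 or 2 of E16.5 (edgeR adjusted p = 0.0578 to 0.145), and in the SS2_20 plates alone, where E16.5 kept 1 plate (0.99, adjusted p = 0.519). Hey1, a repressor best known downstream of Notch, was the 1 of 5 Hes and Hey genes that rose with it (log2 difference 1.40).

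From E16.5 to E18.5, 3 of the 4 genes fell, beside 5.3% of all genes called. Id1 measured 172.9 and 166.2 CPM at E18.5 (log2 difference from E16.5 -1.08, edgeR adjusted p = 0.0247). Id2 measured 386, 375 and 301 CPM at E16.5 and 207 and 199 CPM at E18.5 (-0.79, edgeR adjusted p = 0.0107). Id4 measured 74.6, 69.5 and 70.5 CPM at E16.5 and 33.4 and 37.1 CPM at E18.5 (-1.003, edgeR adjusted p = 0.00577). In none of the 3 did the plates of the stages overlap, whereas those of Id3 did (0.13, adjusted p = 0.782 by edgeR). Id1 lost its call without any 1 plate of E18.5 or without replicate 1 or 2 of E16.5 (edgeR adjusted p = 0.0656 to 0.192), and Id2 and Id4 lost theirs without either plate of E18.5 (0.0568 to 0.12). In neurons with under 100 CPM of glial markers the sign of the Id3 difference turned (-0.46).

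From E18.5 to P3 all 4 genes passed, 2 in each direction, beside 24.8% of all genes. Id1 fell to 101 and 60.3 CPM at P3 (log2 difference -1.05, edgeR adjusted p = 0.0105) and Id3 fell to 184.5 and 150.8 CPM (-0.81, edgeR adjusted p = 0.00885). Id2 rose to 370.4 and 296 CPM (0.74, edgeR adjusted p = 0.00469) and Id4 rose from 33.4 and 37.1 CPM to 92.3 and 91.6 CPM (1.40, edgeR adjusted p = 0.000197). For none of the 4 genes did the plates of the stages overlap. Id1 and Id3 lost their calls without P3 replicate 2 (-0.74, edgeR adjusted p = 0.0734, and -0.69, 0.0755) and without E18.5 replicate 1 (-1.02, 0.057, and -0.73, 0.0695).

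The neurons of the 2 stages were not named from the same set of classes. At E18.5, 235 of 661 neurons were intermediate cells, whose Id1 measured 261 and 249 CPM. At P3 only the names Ia, Ib, Ic and II were open to a cluster, so the absence of intermediate cells there was set in advance. Id1 measured 146 and 176 CPM in Ia at E18.5 and 198 and 157 CPM at P3, which overlapped. In Ia, Ib, Ic and II cells alone, a repeat added after the values had been seen, Id1 lost its call (-0.58, edgeR adjusted p = 0.12) and Id3 kept it (-0.74, edgeR adjusted p = 0.0152).

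The falls of Id1 and Id3 also moved with the choice of neurons by glial markers. In the neurons at or below their plate's median of glial markers Id3 lost its call (-0.47, edgeR adjusted p = 0.209). Among neurons under 100 CPM of glial markers, the differences between P3 and E18.5 were 0.28 for Id1 (edgeR adjusted p = 0.514) and 0.98 for Id3 (0.0158), both turned in sign. That repeat kept 19 of 376 neurons of P3 replicate 1 and 96 of 326 and 82 of 335 neurons of E18.5, and P3 replicate 2, with 2 of 125, did not enter. The rises of Id2 and Id4 kept their calls in every alternative run, including that in mature classes alone. All 3 E proteins, the partners that Id proteins bind, were lower at P3 (Tcf4 -2.07, Tcf3 -1.80 and Tcf12 -0.87 on the log2 scale). This stood beside 24.8% of all genes called, on plates that form a series of their own. Between E16.5 and E18.5 Tcf4 had moved the other way and was higher at E18.5 (0.69, edgeR adjusted p = 0.0199).

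Set directly against E14.5, E18.5 neurons had more Id3 (log2 difference 1.70, edgeR adjusted p = 0.00015) and less Id4 (-1.13, 0.00076), beside 24% of all genes called. Both calls held in every alternative run. Id1 (0.43, edgeR adjusted p = 0.234) and Id2 did not pass between these stages, but in neurons at or below their plate's median of glial markers Id1 did (0.93, edgeR adjusted p = 0.0307). These 5 stage comparisons share plates, so they are not independent of each other. Over all comparisons the median log2 difference of all genes lay between -0.11 and 0.11.

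Within the neurons, E14.5 cells of the unspecialized profile had the lowest Id1, Id3 and Id4 of the early classes. On the 2 plates of E14.5 (38 and 27 cells), Id3 measured 15.2 and 12.8 CPM, Id4 24.9 and 14.6 CPM and Id1 43.2 and 30.9 CPM. Id2 measured 118 and 142 CPM there. At E15.5 the unspecialized cells (18 and 23) measured 150.7 and 205.1 CPM of Id3, 118 and 91.9 CPM of Id4, 141.2 and 139.2 CPM of Id1 and 343 and 354 CPM of Id2. For each gene both E15.5 plates lay above both E14.5 plates. The E15.5 cells matched the unspecialized profile less closely. Their naming score (mean of scaled marker levels) was 0.224, near the cut of 0.2, against 1.53 and 2.789 for the 2 E14.5 clusters. Neurod1 measured 99.9 CPM in them, against 495 and 1612 CPM in those clusters. The gap between the stages therefore compares unlike cells under 1 name.

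The early Ic cells, set on the course to type Ic neurons, and the intermediate cells, which hold the common course of Ia, Ib and II, differed mainly in Id1, Id2 and Id3 at E16.5. In intermediate cells of E16.5, Id1 measured 471, 499 and 328 CPM, Id2 471, 451 and 343 CPM and Id3 339, 327 and 337 CPM on the 3 plates. In early Ic cells of the same plates, Id1 measured 200.4, 164 and 224 CPM, Id2 197.4, 197.7 and 167.5 CPM and Id3 109.5, 132 and 145 CPM. The 2 classes did not overlap for any of the 3 genes. Id4 measured 77.7, 72.5 and 68.8 CPM in intermediate and 67.0, 62.4 and 76.4 CPM in early Ic cells, which overlapped.

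**Figure D2:**
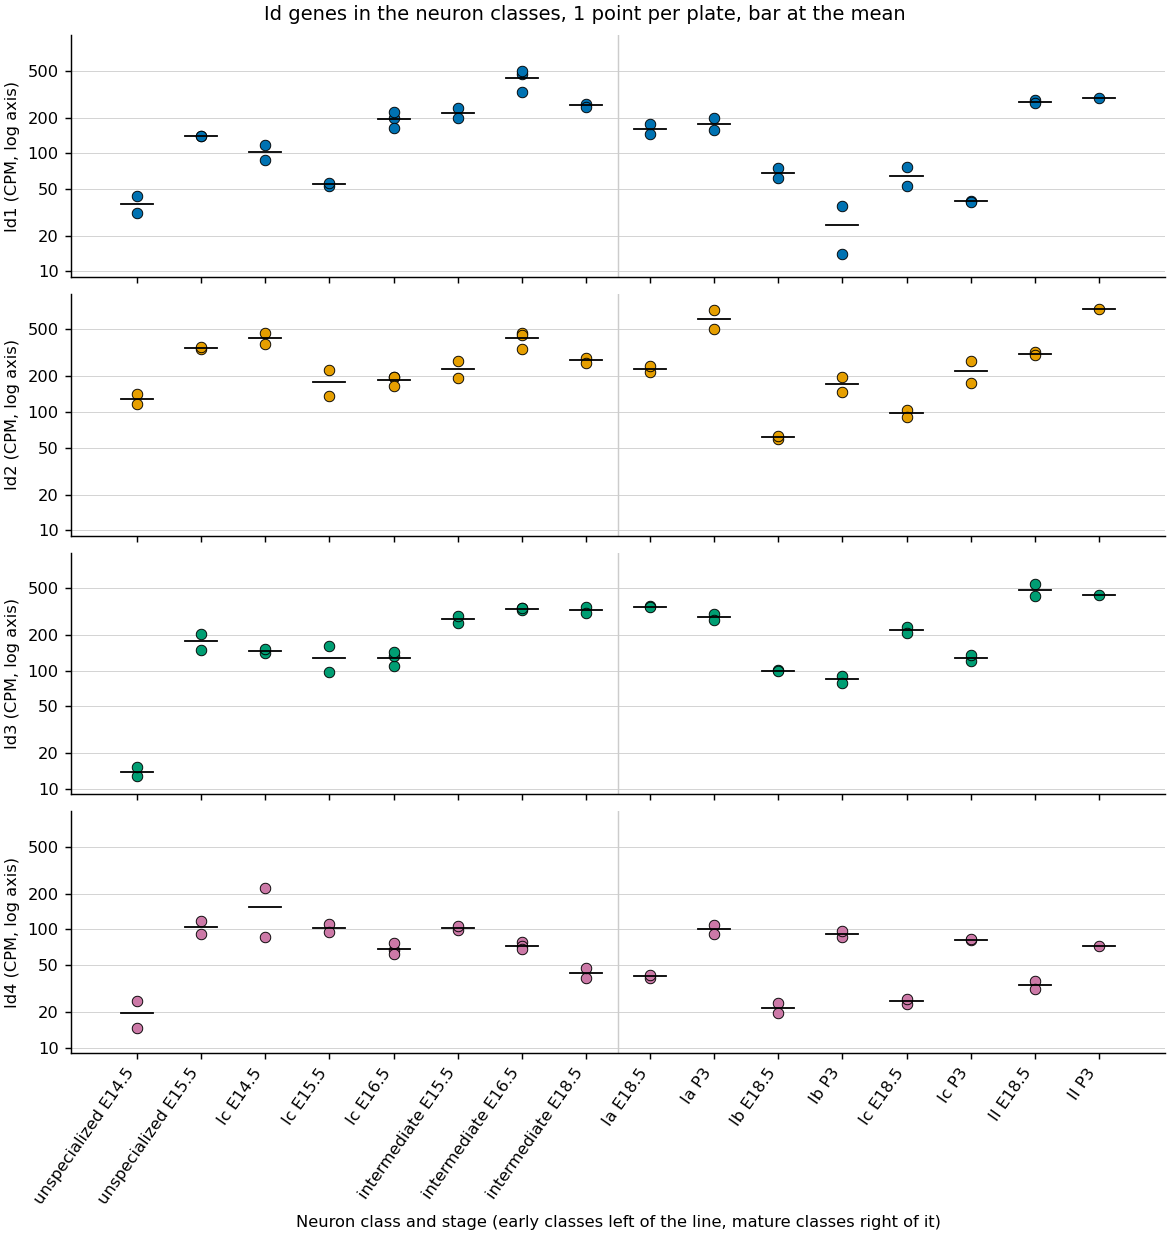
Levels of the 4 Id genes (CPM, log axis) in each neuron class and stage. Each point is the sum of a class on 1 plate. The E14.5 unspecialized cells have the lowest Id3 (15.2 and 12.8 CPM), and at E18.5 and P3 Ia and II lie above Ib and Ic for Id1, Id2 and Id3.

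In the fit over E14.5, E15.5 and E16.5 with stage as a term, none of the 4 genes passed in any of the 3 class comparisons, beside 0.705% of all genes between intermediate and unspecialized cells, 1.22% between early Ic and unspecialized cells and 0.841% between early Ic and intermediate cells. DESeq2 called 0, 0 and 1 of the 4 genes in the same order. At an unadjusted p under 0.05 there were 2, 1 and 1. The 2 that were higher in intermediate than in unspecialized cells were Id3 (log2 difference 1.82 ± 0.58 SE, edgeR adjusted p = 0.189) and Id1 (1.19 ± 0.40 SE, edgeR adjusted p = 0.218). Id4 was at 1.21 ± 0.46 SE between early Ic and unspecialized cells (edgeR adjusted p = 0.233) and Id1 at -1.12 ± 0.34 SE between early Ic and intermediate cells (edgeR adjusted p = 0.192).

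These early results moved with the setting. With the E16.5 plates fitted alone, a repeat added after the values had been seen, Id1 (-1.12, edgeR adjusted p = 0.0352), Id2 (-1.15, 0.0137) and Id3 (-1.36, 0.00555) were lower in early Ic than in intermediate cells. With glial genes left among the clustering features, all 4 genes were higher in intermediate than in unspecialized cells (log2 differences 2.51 for Id1, 2.41 for Id2, 4.57 for Id3 and 2.83 for Id4). Under that setting the unspecialized cells came from E14.5 and the intermediate cells from E15.5 and E16.5, so that these classes shared no stage. In the fit over the 3 stages the intermediate cells had less Neurod1 than the unspecialized cells (-4.07, edgeR adjusted p = 0.000851). Smad7, a feedback inhibitor of BMP and TGF-beta signals, measured 5.5 to 9.5 CPM in unspecialized and 36.9 to 60.9 CPM in intermediate cells (2.68, edgeR adjusted p = 0.0156).

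The unspecialized cells of E14.5 were themselves of 2 clusters. In the 30 cells with the most Neurod1 (1612 CPM), Id3 measured 3.07 CPM, Id4 had no count (the floor is 3 counts), Id1 measured 45.9 CPM and Id2 68.0 CPM. In the other 35 cells (Neurod1 495 CPM), Id3 measured 22.5 CPM, Id4 36.3 CPM, Id1 29.9 CPM and Id2 169 CPM. Another cluster of E14.5 neurons, of 42 cells that matched no class (Neurod1 19.6 CPM), had 239 CPM of Id1, 271 of Id2, 169 of Id3 and 125 of Id4. Each cluster held cells of both plates, and neither Neurod1 nor the Id genes had been used to cluster them. These are pooled values with no test.

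At E18.5 and P3, when the mature SGN classes could be told apart, Id1, Id2 and Id3 were higher in type II neurons, the few neurons that contact outer HCs, and in Ia than in Ib and Ic, the other type I classes. The 235 cells still of the intermediate profile at E18.5 measured 261 and 249 CPM of Id1, 286 and 260.4 CPM of Id2 and 349.3 and 305.3 CPM of Id3, and did not enter the class comparisons. Id3 measured 540.2 and 431 CPM in II at E18.5 and 435 CPM at P3. It measured 356, 344, 299.9 and 270.1 CPM in Ia, 101, 99.3, 90.7 and 78.7 CPM in Ib and 234, 208, 121 and 137 CPM in Ic on the E18.5 plates and then the P3 plates. No sum of one class overlapped with another for Id3, where the order was II, Ia, Ic and Ib. The clusters inside the classes did not keep this order. Of the Ia cells, a cluster of 76 had 447 CPM of Id3, 5881 CPM of glial markers and 4 cell cycle genes but no Ia marker among its 10 leading genes. The other Ia cluster, of 69 cells, had 206 CPM of Id3 and 2000 CPM of glial markers. The 3 Ic clusters had 205, 106 and 306 CPM of Id3 beside 2024, 1021 and 4247 CPM of glial markers.

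Id1 measured 282, 265 and 293 CPM in II, 146, 176, 198 and 157 CPM in Ia, 74.8, 62.0, 35.7 and 14.1 CPM in Ib and 76.9, 52.4, 39.7 and 39.0 CPM in Ic, in the same order of plates. II lay above Ia, and Ia above Ib and Ic, which overlapped with each other. Id2 measured 320 and 306 CPM in II at E18.5 and 745 CPM at P3. It measured 217, 244, 731 and 506 CPM in Ia, 59.2, 62.8, 149 and 199 CPM in Ib and 104, 91.3, 177 and 271 CPM in Ic. Within a stage II and Ia lay above Ib and Ic, and the Id2 of every class was higher at P3 than at E18.5. Id4 measured 19.8 to 41.1 CPM over the classes at E18.5 and 72.9 to 109 CPM at P3. Its P3 sums lay above its E18.5 sums in each class.

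**Figure D3:**
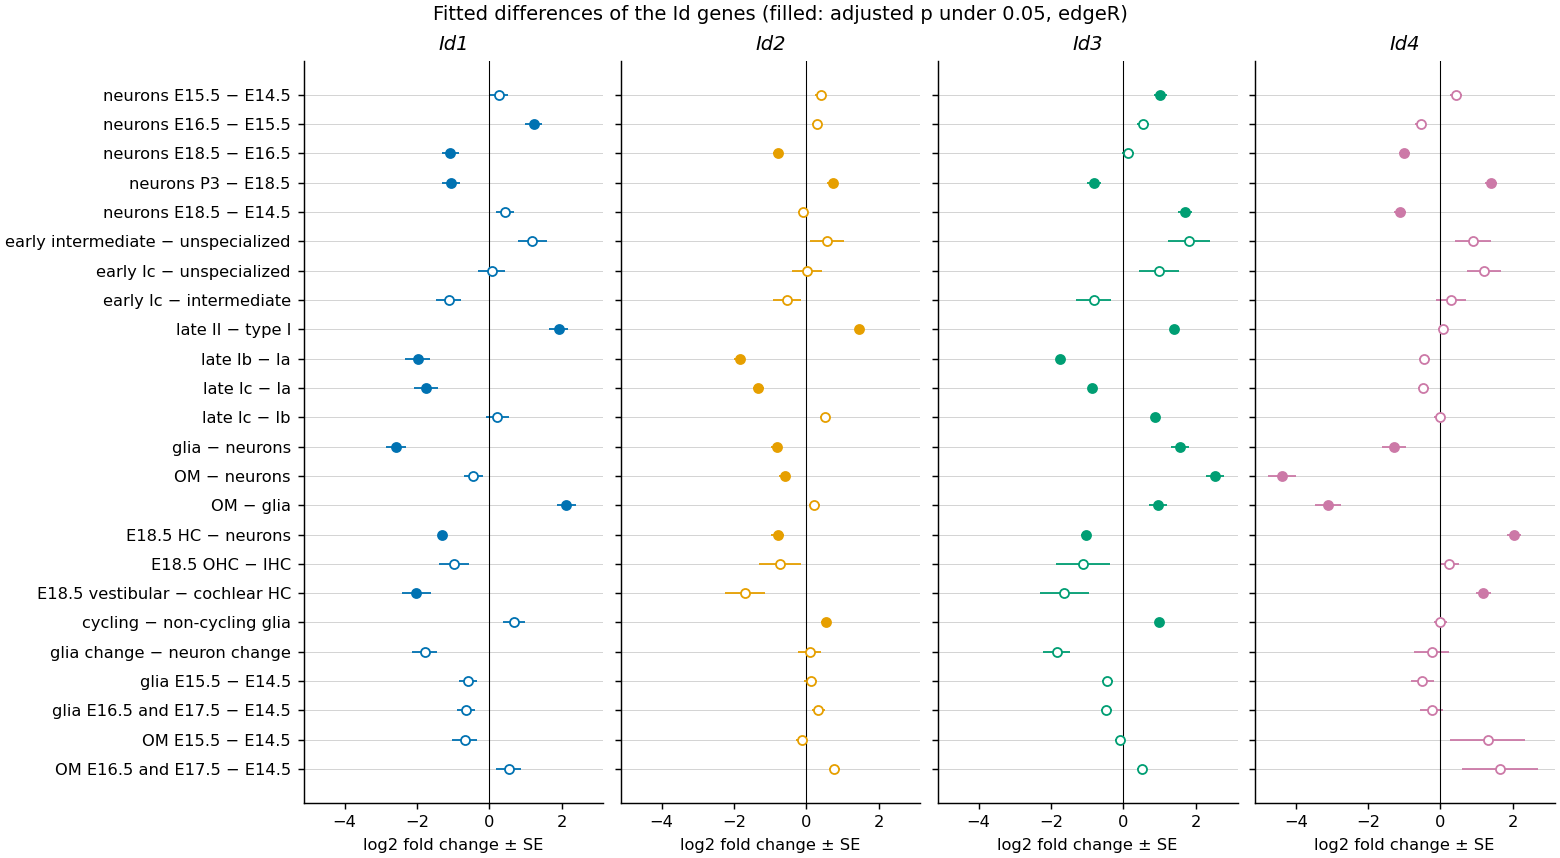
Fitted log2 differences (points, edgeR) with their SE (bars) for the 4 Id genes in each comparison. The values between neuron classes reach 1.92 for Id1 between II and type I and -1.98 between Ib and Ia, and the value furthest from 0 is Id4 between OM and neurons (-4.38).

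Against the mean of the type I classes, 3 of the 4 genes were higher in II, beside 15.7% of all genes called. The log2 differences were 1.92 ± 0.26 SE for Id1 (edgeR adjusted p = 0.00015), 1.46 ± 0.12 for Id2 (1.91e-06) and 1.41 ± 0.11 for Id3 (7.01e-07). Id4 differed by 0.08 ± 0.14 SE (edgeR adjusted p = 0.779). The 3 calls held in every alternative run made, including in neurons at or below their plate's median of glial markers. In neurons under 100 CPM of glial markers this comparison had no result. Type II rested on 3 sums of 18 to 25 cells, since P3 replicate 2 had only 4 such cells.

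Ib had less Id1, Id2 and Id3 than Ia, beside 3.4% of all genes called. The log2 differences were -1.98 ± 0.34 SE for Id1 (edgeR adjusted p = 0.00468), -1.84 ± 0.15 for Id2 (2.85e-05) and -1.75 ± 0.13 for Id3 (1.12e-05). Ic likewise had less of the 3 genes than Ia, beside 3.49% of all genes called, by -1.75 ± 0.33 for Id1 (edgeR adjusted p = 0.0071), -1.32 ± 0.15 for Id2 (0.000133) and -0.86 ± 0.13 for Id3 (0.0011). Between Ic and Ib, with 0.315% of all genes called, Id3 was higher in Ic (0.88 ± 0.13 SE, edgeR adjusted p = 0.00567). Id4 did not pass in any of these comparisons, although it was called between Ib and Ia with the E18.5 plates alone (-0.85, edgeR adjusted p = 0.014) and between Ic and Ia by DESeq2 (-0.49, adjusted p = 0.0475).

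Glial markers moved with the type I classes at E18.5, at 4227 and 4357 CPM in Ia, 1170 and 1037 CPM in Ib and 2648 CPM in Ic on both plates. At P3 they were 3406 to 4381 CPM in the 3 classes with no such gap. In neurons under 100 CPM of glial markers, Id2 between Ib and Ia (-2.39) was the 1 call of the 3 that remained, and none of the 3 calls between Ic and Ia remained. The differences kept their sign, at -0.87 for Id1 and -1.17 for Id3 between Ib and Ia, and at -1.22 for Id1, -1.18 for Id2 and -0.56 for Id3 between Ic and Ia (edgeR adjusted p = 0.202 to 0.696 for these 5). Id1 also lost its call between Ib and Ia without E18.5 replicate 2 (-2.20, edgeR adjusted p = 0.0618), and between Ic and Ia without E18.5 replicate 2 or P3 replicate 1 (edgeR adjusted p = 0.0847 and 0.0503). Id3 between Ic and Ib lost its call in 7 of the alternatives, among them those without E18.5 replicate 1 (0.77, edgeR adjusted p = 0.195) and without E18.5 replicate 2 (0.82, edgeR adjusted p = 0.155). With glial genes among the clustering features Id3 between Ic and Ia was at -0.93 (edgeR adjusted p = 0.208). Without the neuron clusters led by cell cycle genes, a repeat added after the values had been seen, the 3 calls between Ib and Ia held (Id3 -1.46, edgeR adjusted p = 0.000336), as did those of Id1 and Id2 between Ic and Ia, whereas Id3 lost its call there (-0.56, edgeR adjusted p = 0.0986).

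Of the late neuron comparisons, that of II and type I had the most BMP pathway genes called. It also had the most genes called of all, at 15.7% against 3.4%, 3.49% and 0.315% in the others. Of the 4 BMP Smads and the 4 BMP ligands tested, 0 passed. Of 8 BMP inhibitors and feedback genes 4 were higher in II, with Nbl1 at a log2 difference of 5.07, Nog (noggin, which binds BMPs outside the cell) at 4.65 and the inhibitory Smad6 at 3.22. Nog measured 7.18 and 7.59 CPM in II at E18.5 and 106 CPM at P3. Of 6 BMP receptors 2 were higher and 2 lower, and the type I receptor gene Bmpr1a measured 179, 181 and 234 CPM in II (1.35, edgeR adjusted p = 8.68e-07). Hey1 was higher in II (1.19) and lower in Ib (-1.04) and Ic (-0.74) than in Ia, while no E protein passed in any late comparison.

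Glia of the SS2_20 plates carried Id3 as their main Id gene. Over 6 plates Id3 measured 360 to 599 CPM in glia (median 418) and 72.5 to 291 CPM in neurons (median 181). Id1 measured 18.9 to 38.1 CPM in glia (median 24.8) and 97.3 to 303 CPM in neurons (median 153.1). Id2 measured 97.8 to 154 CPM in glia (median 132.8) and 209 to 311 CPM in neurons (median 236), and Id4 22.1 to 40.4 CPM (median 31.1) and 62.5 to 106 CPM (median 88.2). The classes did not overlap for any of the 4 genes.

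All 4 genes passed between glia and neurons, where 54% of all genes were called. Id3 was higher in glia (log2 difference 1.57, edgeR adjusted p = 6.66e-05). Id1 (-2.58, edgeR adjusted p = 1.21e-06), Id4 (-1.28, 0.00407) and Id2 (-0.82, 0.00029) were lower. With E16.5 replicates 1 and 2 and E18.5 added, Id4 lost its call (-0.92, edgeR adjusted p = 0.139). The glia sums of E16.5 replicates 1 and 2 held 17 and 9 cells and carried 3602 and 5326 CPM of neuronal markers, against 82.9 CPM in replicate 3, with Id1 at 223 and 266 CPM.

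**Figure D4:**
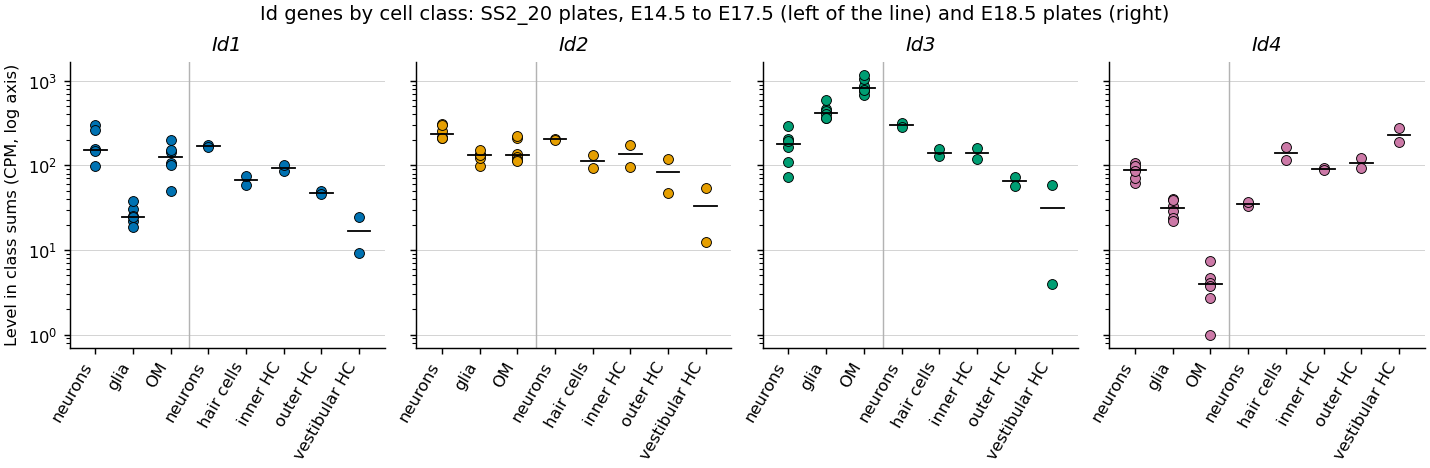
Levels of the 4 Id genes (CPM, log axis) in neurons, glia, OM and HCs, with 1 point per plate. Of neurons, glia and OM on the SS2_20 plates, OM has the highest Id3 (679 to 1168 CPM) and the lowest Id4 (1.00 to 7.31 CPM). Id1 of glia (18.9 to 38.1 CPM) lies below that of neurons and OM there. HCs are drawn from the E18.5 plates only, beside the neurons of those plates.

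OM cells, from the mesenchyme around the otic epithelium, had the highest Id3 and almost no Id4. On the SS2_20 plates Id3 measured 679 to 1168 CPM (median 815) and Id4 1.00 to 7.31 CPM (median 3.92). Id1 measured 49.3 to 199.6 CPM (median 126) and Id2 113 to 223 CPM (median 132). The OM and neuron plates did not overlap for Id3 and Id4, and overlapped for Id1 and Id2.

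Between OM and neurons, 3 of the 4 genes passed, beside 54.7% of all genes called. These were Id3 (log2 difference 2.53, edgeR adjusted p = 6.39e-07), Id4 (-4.38, 1.35e-07) and Id2 (-0.60, 0.00352), whereas Id1 did not pass (-0.44, 0.163). Between OM and glia, with 25.3% of all genes called, Id1 (2.14, edgeR adjusted p = 2.96e-05) and Id3 (0.96, 0.00847) were higher in OM, Id4 was lower (-3.11, 1.63e-05) and Id2 did not pass (0.22, 0.326). These calls held in every alternative run. The OM sums of E16.5 replicates 1 and 2, which entered only when all embryonic plates were used, held 5 and 10 cells and 3753 and 5562 CPM of neuronal markers, with Id4 at 23.8 and 64.1 CPM.

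The E proteins, like Id3, were higher in glia and OM than in neurons, comparisons in which 54% and 54.7% of all genes were called. Tcf4, Tcf12 and Tcf3 were all higher in glia than in neurons (log2 differences 2.69, 2.27 and 2.03) and in OM than in neurons (2.21, 2.53 and 2.20), and none of the 3 differed between OM and glia at the threshold. BMP ligands were higher than in neurons in 4 of 5 genes in OM and 2 of 5 in glia, and 3 of 5 were higher in OM than in glia, Bmp7 by 2.30 on the log2 scale. Of the 5 Hes and Hey genes 4 were higher in glia than in neurons. For the ligands in glia the share lay below that of all genes called.

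HCs, the mechanosensory receptor cells, had the most Id4 of the classes at E18.5. Their sums (37 and 32 cells) measured 115 and 165 CPM of Id4, 58.8 and 74.8 CPM of Id1, 92.6 and 133.4 CPM of Id2 and 127 and 155 CPM of Id3. The neurons of the same plates measured 33.4 and 37.1 CPM of Id4, 172.9 and 166.2 CPM of Id1, 207 and 199 CPM of Id2 and 317 and 281 CPM of Id3. For each gene the classes did not overlap. All 4 genes passed between HCs and neurons, beside 57.1% of all genes called, with Id4 higher in HCs (log2 difference 2.04, edgeR adjusted p = 0.00079) and Id1 (-1.29, 0.0012), Id3 (-1.03, 0.00255) and Id2 (-0.79, 0.016) lower.

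The HC sum joined cochlear inner HCs (IHCs), outer HCs (OHCs) and cells with vestibular HC markers, and these differed. Id4 measured 94.1 and 87.3 CPM in IHCs, 93.3 and 122.5 CPM in OHCs and 189.6 and 274 CPM in vestibular HCs. Id1 measured 86.2 and 101 CPM, 49.7 and 45.8 CPM, and 9.17 and 24.4 CPM in the same classes. Vestibular HCs lay above both cochlear classes for Id4 and below both for Id1.

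Vestibular HCs had more Id4 (log2 difference 1.19, edgeR adjusted p = 0.00318) and less Id1 (-2.02, 0.00544) than cochlear HCs, beside 14.4% of all genes called. Id2 (-1.70, edgeR adjusted p = 0.0632) and Id3 (-1.63, 0.155) did not pass. With the plate as a term of the fit Id2 was called (-1.89, edgeR adjusted p = 0.00217). Without the filter on low counts both Id2 (-1.67) and Id3 (-1.60) were called. Between OHCs and IHCs none of the 4 genes passed, with 6.06% of all genes called. DESeq2 called 0 as well. At an unadjusted p under 0.05 there was 1, Id1 (-0.97, edgeR adjusted p = 0.23). These sums held 4 to 13 cells, and fits without 1 of the 2 plates could not be made. The ligand gene Bmp2 was higher in OHCs than IHCs (6.80 on the log2 scale) and in vestibular than cochlear HCs (2.99).

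Glia were dividing in part, and Id3 and Id2 were higher in the dividing ones. Of 1136 glia, 286 had at least 6 of 12 cell cycle genes detected, 659 had at most 2 and 191 lay between. Over the 6 SS2_20 plates Id3 measured 482 to 846 CPM in cycling and 292 to 374 CPM in non-cycling glia, which did not overlap. Id2 measured 128 to 203 CPM and 70.1 to 145 CPM, which did. Both passed, beside 9.04% of all genes called, at log2 differences of 1.00 ± 0.13 SE for Id3 (edgeR adjusted p = 0.000304) and 0.56 ± 0.13 for Id2 (0.0221). Id1 (0.68, edgeR adjusted p = 0.205) and Id4 (0.00) did not pass. The Id2 call was lost without E16.5 replicate 3, E15.5 replicate 1 or E15.5 replicate 2 (edgeR adjusted p = 0.0585, 0.0798 and 0.0881), while that of Id3 held throughout. Tcf3 was higher in cycling glia (0.34) and Hey1 lower (-0.56).

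No Id gene passed between stages within glia or OM in edgeR. DESeq2 called 1 in glia and 2 in OM between E16.5 with E17.5 and E14.5. In glia 0% of all genes were called between E15.5 and E14.5 (1373 genes at an unadjusted p under 0.05, 286 called by DESeq2) and 0.914% between E16.5 with E17.5 and E14.5. Id3 measured 599 and 467 CPM in glia at E14.5, 434 and 365 CPM at E15.5, 401 CPM at E16.5 and 360 CPM at E17.5. Both E14.5 plates lay above the later ones (log2 difference of E16.5 and E17.5 from E14.5 -0.47, edgeR adjusted p = 0.202). In OM 0% of all genes were called in either comparison (1152 and 1096 genes at an unadjusted p under 0.05, 251 and 310 called by DESeq2). Id3 measured 756 and 863 CPM at E14.5 and 1051 and 1168 CPM at E16.5 and E17.5 (0.52, edgeR adjusted p = 0.44).

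The stage change itself was compared between glia and neurons. The change from E14.5 to E16.5 and E17.5 was lower in glia than in neurons by 1.79 ± 0.35 SE for Id1 and 1.85 ± 0.36 for Id3 on the log2 scale, neither past the threshold (edgeR adjusted p = 0.0798 and 0.0822), beside 0.419% of all genes called. DESeq2 called 2 of the 4 genes here. For Id2 (0.10) and Id4 (-0.25) the differences lay within their SE.

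In single cells the 4 genes were often found together in neurons. A gene was counted as present at 10 CPM or more. All 4 were present in 6.15% of 65 unspecialized cells at E14.5 and in 75.6% of 41 at E15.5, which matched that profile less closely. The share was 78.8% of 33 intermediate cells at E15.5, 87.3% of 510 at E16.5 and 80.4% of 235 at E18.5, and 44.4% of 18, 27.3% of 33 and 48.7% of 238 early Ic cells at E14.5, E15.5 and E16.5. Among mature classes it was 84.8% and 92.1% in Ia at E18.5 and P3, 83.7% and 86.4% in II, 53.7% and 49.7% in Ic and 32.1% and 40.8% in Ib. Glia held all 4 in 4.05% to 13.4% of cells over E14.5 to E17.5, with the highest share at E16.5. The 254 glia of E16.5 included 17 and 9 cells of replicates 1 and 2, whose sums carried 3602 and 5326 CPM of neuronal markers. The part of these cells in that share was not tested. Cells of a plate are not replicates, and these shares are descriptions with no test.

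**Figure D5:**
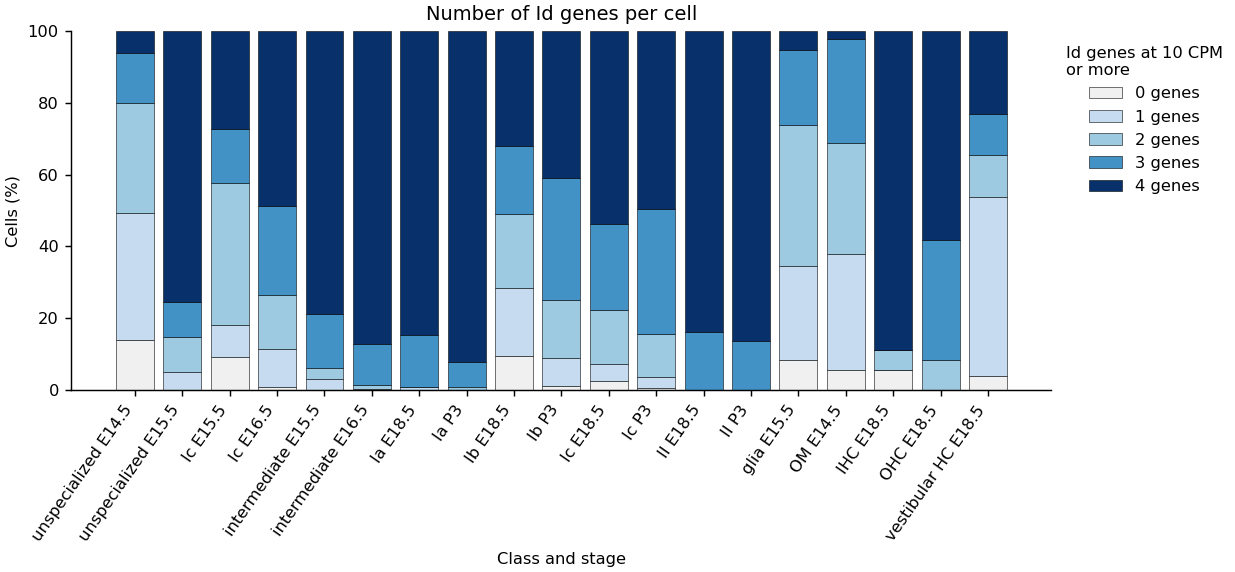
Share of cells (%) with 0 to 4 Id genes at 10 CPM or more, by class and stage. All 4 genes are present in 6.15% of the E14.5 unspecialized cells and in 92.1% of the P3 Ia cells.

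The gap between the E14.5 and E15.5 cells named unspecialized, which matched that profile unequally, was also there at equal depth. Thinned to 100000 counts a cell, Id3 had a read in 26.6% of the unspecialized cells at E14.5 (32.3% before thinning, median 263132 counts a cell) and 85.4% at E15.5 (85.4% before, median 266218). At E16.5 it had a read in 98.8% of intermediate and 70.3% of early Ic cells after thinning. Id4 had a read in 4.24% of the OM cells at E14.5 after thinning (4.49% before), the lowest share of the 4 genes in these cells and an upper level for free RNA of Id4 in them. In vestibular HCs Id4 reached 10 CPM in 96.2% of 26 cells, and Id3 in 26.9%.

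Within a plate, Id1, Id2 and Id3 varied together from neuron to neuron. Over the 12 plates (60 to 376 neurons each) the median Spearman rho was 0.58 for Id1 and Id2, 0.51 for Id1 and Id3 and 0.465 for Id2 and Id3, against 0.204 to 0.238 for pairs with Id4. The median rho of each gene with a neuron's total counts was 0.025 to 0.048 and with its glial markers -0.059 to 0.09. From plate to plate the rho with glial markers ran from -0.18 to 0.418 for Id3, and lay between -0.229 and 0.229 for the other genes. The part of glial RNA in the shared variation was not tested. The cells of a plate share its library and include several neuron classes. In OM (6 plates) the medians were 0.418 to 0.543 among Id1, Id2 and Id3 and 0.012 to 0.068 with Id4, and in glia 0.159 to 0.268 and 0.054 to 0.079.

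The genes most like each Id gene were taken over 34 sums of neurons, glia, OM and HCs, among 10955 genes. Pearson r of log2(CPM + 1) was highest with Unc5c (0.897) and Macrod2 (0.886) for Id1, with 1700019D03Rik (0.789) and Slc7a5 (0.789) for Id2, with Fbxl7 (0.921) and Kctd12 (0.918) for Id3 and with Mfsd6 (0.931) and Nrcam (0.927) for Id4. Within the family r was 0.658 for Id1 and Id2, 0.388 for Id2 and Id4 and -0.821 for Id3 and Id4. The sums share plates and fall into 4 cell classes.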

How the data were processed

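Cells were sorted and sequenced with Smart-seq2, and the authors aligned reads to mm10 with STAR (versions not given in the sources used here) and kept uniquely mapped reads. The deposited values were raw read counts per gene and well. Counts of 384 wells of a plate that matched no sample were not used. Wells with under 1000 genes or over 5% ERCC counts were dropped, doublets were not called, and a cell selection made by the study was not rebuilt. Cells were clustered per stage, E17.5 with E18.5 (scanpy 1.11.5, Leiden resolution 1, 2000 variable genes, 30 components) without the Id genes, 37 pathway genes or 1364 glial genes, and named from markers. The scale of the naming score was set after the clusters' marker levels had been seen. Counts were summed per class and plate (at least 5 cells, 3 for HCs) and tested with edgeR 4.0.16 (quasi-likelihood, TMM, filterByExpr, Benjamini-Hochberg over all genes, threshold 0.05). DESeq2 1.42.0, other filters, clusterings and glia-poor neurons were alternatives, and those of 1 stage alone, of mature classes alone and without clusters led by cell cycle genes were added after the data were seen. The named genes were the 4 Id genes, with at most 3 called genes of each list and comparison, and the 5 genes most like each Id gene. The members and lists were chosen with earlier results of these data known. On simulated counts 27% to 32% of genes changed by 1 on the log2 scale were recovered over 3 designs (neurons by stage, early classes, cell classes). Plate replicate numbers follow the order of deposit and pair nothing, but classes of 1 plate come from the same sort. Deviations of classes from their stage means correlated at 0.00389 to 0.0302 over 6 distinct pairs, since the 2 plates of a stage mirror each other.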

Additional observations from a re-analysis of the deposited data

Results flagged for a closer look

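Cells outside the named classes also held Id counts, and their pooled CPM are given without a comparison. Of the unnamed clusters of E14.5, 12 cells measured 288.7 CPM of Id1, 640.9 of Id2, 723.4 of Id3 and 199.5 of Id4, and 53 cells measured 348.5, 170.7, 386.9 and 26.33 CPM in the same order. A cluster of 13 cells at E15.5 measured 121.2, 340.7, 412.0 and 95.93 CPM, and 32 cells at E16.5 measured 364.8, 344.7, 198.5 and 50.3 CPM. Of the clusters that joined E17.5 and E18.5, 8 cells (glial markers 12850 CPM) measured 243.2, 376.2, 1046 and 62.6 CPM, and 84 cells (glial markers 7584 CPM) measured 27.89, 231.1, 242.2 and 37.93 CPM. In 6 immune cells of E14.5 Id1 measured 21.89 CPM, Id2 150.0 CPM and Id3 13.35 CPM, and Id4 stayed under the floor of 3 counts. What set these cells apart was not tested.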

How the results depend on the processing

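The calls of Id genes were repeated under each alternative. Of 39 calls, 39 held under DESeq2 and 39 without a filter on low counts, 38 at Leiden resolution 2 and 37 with glial genes among the clustering features. In neurons at or below their plate's median of glial markers 29 of 31 held, and in neurons under 100 CPM of glial markers 20 of 28. When 1 plate was left out, calls held in 217 of 244 fits. Hair cell fits without 1 plate were not run, as no residual degrees of freedom were left.

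The number of Id genes called moved by over 1.5 times as follows. DESeq2 called 3 (in place of 1) between E16.5 and E15.5, 1 (0) between early Ic and intermediate cells, 1 (0) in late against E14.5 glia, 2 (0) in late against E14.5 OM and 2 (0) in the glia against neuron stage change. Without the filter 2 (0) were called between intermediate and unspecialized cells, 1 (0) between early Ic and intermediate cells, 2 (1) between Ic and Ib, 1 (0) between OHCs and IHCs, 4 (2) in vestibular HCs and 2 (0) in the stage change. At Leiden resolution 2 it was 2 (0) between intermediate and unspecialized cells and 0 (1) between Ic and Ib. With glial genes kept it was 4 (0) between intermediate and unspecialized, 3 (0) between early Ic and unspecialized, 2 (0) between early Ic and intermediate cells and 0 (1) between Ic and Ib. In glia-poor neurons it was 1 (3) between Ib and Ia, 0 (3) between Ic and Ia and 0 (1) between Ic and Ib, and at or below the glial median 0 (1) for the last. The SS2_20 plates alone gave 0 (1) for E15.5 against E14.5 and 0 (1) for E16.5 against E15.5. Plates of 1 stage alone gave 3 (0) between early Ic and intermediate cells at E16.5, and 2 (1) at E18.5 and 0 (1) at P3 between Ic and Ib. When 1 plate was left out, counts ran from 0 to 2 (E15.5 against E14.5), 0 to 3 (E16.5 against E15.5), 0 to 3 (E18.5 against E16.5), 2 to 4 (P3 against E18.5), 0 to 1 (Ic against Ib) and 1 to 2 (cycling glia). Smaller moves were 2 to 3 of 3 (Ib and Ic against Ia, 1 plate left out), Id4 gained between Ib and Ia at E18.5 alone (-0.85) and between Ic and Ia under DESeq2 (-0.49), Id1 gained between E18.5 and E14.5 at or below the glial median (0.93), Id2 gained in vestibular HCs with the plate block, Id4 lost between glia and neurons on all embryonic plates, Id3 lost between Ic and Ia without neuron clusters led by cell cycle genes (-0.56) and Id1 lost between P3 and E18.5 in Ia, Ib, Ic and II cells alone (-0.58). The cause was not tested.

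Signs turned, in log2 differences, in glia-poor neurons for Id3 (-0.46) between E18.5 and E16.5, Id1 (0.28) and Id3 (0.98) between P3 and E18.5, Id1 (-0.21) and Id2 (-0.0272) between early Ic and unspecialized cells, Id4 (0.034) between Ib and Ia and Id1 (-0.35) between Ic and Ib. At or below the glial median they turned for Id3 (-0.47) between E18.5 and E16.5, Id2 (0.079) between E18.5 and E14.5, Id1 (-0.0875) between early Ic and unspecialized cells, Id4 (-0.0735) between II and type I and Id2 (-0.0442) in the stage change. With at least 10 cells a sum Id1 (-0.017) and Id2 (-0.18), and at resolution 2 Id2 (-0.32), turned between early Ic and unspecialized cells, and at resolution 2 Id4 (0.031) between Ic and Ib. Plates of 1 stage turned Id4 (-0.0748, E16.5) between early Ic and intermediate cells, Id4 (-0.27, P3) between II and type I, and Id1 (-0.0725) and Id4 (0.19) between Ic and Ib at E18.5. Id4 in cycling glia turned under DESeq2 (-0.006), no filter (-0.0003) and glial genes kept (-0.0574). Leaving out 1 plate gave ranges across 0 of -0.0026 to 0.19 for Id3 between E18.5 and E16.5, -0.36 to 0.51 for Id1 and -0.45 to 0.53 for Id2 between early Ic and unspecialized cells, -0.0682 to 0.28 for Id4 between II and type I, -0.0106 to 0.41 for Id1 and -0.12 to 0.0722 for Id4 between Ic and Ib, -0.0727 to 0.36 for Id2 and -0.74 to 0.13 for Id4 in glia (E15.5, and late, against E14.5), -0.0555 to 0.0972 for Id4 in cycling glia and -0.28 to 0.49 for Id2 in the stage change.

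With the plate as replicate block 28 of 28 calls held, and 44 (93), 50 (161) and 0 (66) of all genes were called for intermediate and early Ic against unspecialized cells and for the stage change. Against the first fits, DESeq2 called 2562 (1092), 1419 (328) and 2030 (945) of all genes between the neuron stages up to E18.5, 473 (93), 703 (161) and 294 (111) between the early classes, 1187 (518), 901 (533) and 213 (48) between the type I classes, 1197 (149) in late glia, 2221 (1365) in cycling glia and 852 (66) for the stage change. Without the filter 515 (328) were called between E16.5 and E15.5, 245 (93), 300 (161) and 233 (111) between the early classes, 913 (518) between Ib and Ia, 184 (48) between Ic and Ib, 1375 (767) between OHCs and IHCs, 849 (149) in late glia and 438 (66) for the stage change. At resolution 2 it was 646 (93) and 735 (161) against unspecialized cells, and with glial genes kept 559 (93), 708 (161) and 205 (111) between the early and 206 (518), 339 (533) and 2 (48) between the type I classes. Glia-poor neurons gave 2887 (4421) between P3 and E18.5, 84 (518) between Ib and Ia, 224 (533) between Ic and Ia and 47 (93) and 83 (161) against unspecialized cells. E18.5 alone gave 2505 (518) between Ib and Ia and 862 (48) between Ic and Ib. The share of DESeq2 calls that were higher moved from 74.1% to 62.7% (E16.5 against E15.5), 58.3% to 47.9% (Ib against Ia), 35.4% to 46.0% (Ic against Ib), 66.9% to 54.3% (cycling glia) and 75.8% to 57.9% (stage change). Small sums of 4 to 13 cells limit the HC classes, and reads without molecular identifiers leave counting error and amplification joined.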
